A study of Drosophila melanogaster with 6 samples.

Results

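Small nucleolar RNAs (snoRNAs) and small Cajal body RNAs (scaRNAs) were examined in progenitor cells of the adult fly intestine. They were taken from the deposited read counts as the rows named snoRNA or scaRNA with at least 10 reads over the 6 libraries, which gave 218 of 304 such rows and of 17806 named genes. Of the other rows, 46 had 0 reads and 40 had 1 to 9 reads. The members were thus chosen by their read totals, which are given here only as a description. There were 6 to 9 rows at each total of 10, 11 and 12 reads, just inside the minimum, and 4 to 6 rows at each total of 7, 8 and 9 reads, just outside it. The members comprised 58 guides of methylation (Me in their name), 113 guides of pseudouridylation (Psi) and 47 others, and 203 were snoRNAs and 15 scaRNAs.

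The Patr1 group held 3 libraries and the esgTS group 3 libraries, all from GFP-positive progenitors sorted out of the dissociated guts of adult females, where every replicate drew on 100 flies held for 6 days at 29 °C. The genotype is given only as Patr1 or esgTS, so neither the Patr1 allele nor any transgene that both groups may carry is described here. Patr-1 encodes a decapping cofactor of P-bodies, and the design names RNAs under P-body control as the question. Whether replicates came from separate days is not given, so the p-values measure the spread between these libraries, which may be technical. The RNA was total RNA depleted of rRNA.

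Box C/D snoRNAs carry the methyltransferase fibrillarin to rRNA, where it adds a methyl group to the ribose of the paired residue. Box H/ACA snoRNAs carry a pseudouridine synthase, called Nop60B in flies and dyskerin in mammals, which turns a chosen uridine into pseudouridine. The scaRNAs do the same for the RNAs of the spliceosome, in Cajal bodies. Fly guide RNAs are mostly cut out of introns, and their names give the target RNA and residue, so that Me28S-A771 guides methylation of an adenosine in 28S rRNA. Letters after the residue mark copies of a guide.

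The libraries held 2035676 to 2866705 reads in Patr1 and 2627978 to 2958607 reads in esgTS. Patr-1 itself was at 35.7 ± 3.37 CPM (reads scaled to the size of the library) in Patr1 and 219 ± 12.1 CPM in esgTS (SD, n = 3 each), a log2 fold change of -2.62 ± 0.10 (SE; edgeR adjusted p = 1.6e-09). The summed level of 5 progenitor markers (esg, Dl, N, klu and Sox21a) was 3736 to 4279 CPM in Patr1 and 3349 to 3555 CPM in esgTS, with 3 higher and 1 lower. Markers of other cells were present in both, and no listed marker was at 0 in every library. The 3 visceral muscle markers (Mhc, sls and bt) summed to 100.5 to 126 CPM in Patr1 and 24.7 to 27.8 CPM in esgTS, of which 2 were higher and 0 lower. The 3 hemocyte markers (Hml, Col4a1 and srp) summed to 122 to 158 CPM in Patr1 and 88.0 to 105.5 CPM in esgTS, with 1 higher and 1 lower. The 3 enterocyte markers (nub, Myo31DF and mex1) summed to 471 to 491 CPM in Patr1 and 508 to 568 CPM in esgTS, with 2 higher and 1 lower. The 3 enteroendocrine markers summed to 45.3 to 85.9 CPM in Patr1 and 50.3 to 103 CPM in esgTS, with 0 called. The 3 germline markers, nearly all from vas, summed to 14.1 to 21.1 CPM in Patr1 and 0.66 to 0.76 CPM in esgTS, with 1 higher. The share of these cells in the results on snoRNAs was not tested. In such sorted bulk samples, fewer cells of a type and less RNA per cell cannot be told apart.

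The snoRNAs and scaRNAs spread widely between the Patr1 libraries and little between the esgTS libraries. Patr1 replicates 1, 2 and 3 held 5550, 5897 and 2712 reads of the 218 members, against 7078, 7091 and 7454 reads in esgTS replicates 1, 2 and 3. On library sizes scaled with TMM factors these came to 2789, 2010 and 1192 CPM in Patr1, against 2432, 2345 and 2843 CPM in esgTS. Patr1 replicate 1 thus lay inside the esgTS range, and Patr1 replicates 2 and 3 lay below it. The means were 1997 ± 799 CPM in Patr1 and 2540 ± 265 CPM in esgTS (SD, n = 3 each), a ratio of 0.786. Without Patr1 replicate 3 the ratio was 0.945.

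Among 139 members that passed the expression filter, 0 were higher and 9 lower in Patr1 at an adjusted p of 0.05 in edgeR's quasi-likelihood test, which is 6.47% called lower. At an unadjusted p under 0.05, 0 were higher and 19 lower. Of all 7927 genes tested, 25.5% were called higher and 23.9% lower. The median SE of the log2 fold change was 0.32 over the tested members and 0.13 over all genes. A call thus took a larger change in a typical member, and the shares are not directly comparable. The median log2 fold change was -0.35 over the tested members, with 128 of 139 below 0, and 0.01 over all genes. The levels of Patr1 and esgTS did not overlap for 19 members lower in Patr1, with a background of 27.7%, and for 1 member higher in Patr1, with a background of 29.6%. The 79 members below the filter entered no test in this fit.

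Medians were alike across the classes in this fit. For methylation guides the median log2 fold change was -0.33, with 2 of 13 tested called lower. These 13 were 6 scaRNAs and only 7 of the 49 snoRNA methylation guides. For pseudouridylation guides it was -0.35, with 4 of 101 called lower. The other members, which include U3 and guides without a target in their name, had a median of -0.41, with 3 of 25 called lower. No member of any class was called higher. Among pseudouridylation guides, those to 18S rRNA had a median of -0.29 with 0 of 36 lower, and those to 28S rRNA a median of -0.44 with 4 of 59 lower. In a fit of every gene with at least 10 reads, the medians were less alike. They were -0.64 for methylation guides, -0.36 for pseudouridylation guides and -0.63 for the other members. That fit takes in the members below the filter, among which the read minimum favoured those low in Patr1.

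Summed levels, which take in members below the filter, did not overlap between the groups for methylation guides of the snoRNA kind. They overlapped for snoRNA pseudouridylation guides, for scaRNAs and for the 47 other members as a whole. The planned class sum took in all 58 methylation guides, scaRNAs included. It was 235, 184 and 127 CPM in Patr1, against 252, 251 and 273 CPM in esgTS. The ratio of the means was 0.703, and 0.809 without Patr1 replicate 3. In 24 of the 58, only the esgTS libraries together reached 10 reads, which favoured a lower Patr1 sum. The 49 snoRNA methylation guides summed to 96.5, 89.6 and 70.8 CPM in Patr1 replicates 1, 2 and 3, against 139, 144 and 137 CPM in esgTS replicates 1, 2 and 3. All 3 Patr1 libraries lay below all 3 esgTS libraries, with means of 85.6 ± 13.3 CPM in Patr1 and 140 ± 3.27 CPM in esgTS (SD, n = 3 each), a ratio of 0.612. The ratio was 0.665 without Patr1 replicate 3. Without the 2 methylation guides called lower, the sums still did not overlap, at 65.5 to 86.9 CPM in Patr1 and 117 to 121 CPM in esgTS. Of the 49, 21 had 10 reads or more over the esgTS libraries and fewer over the Patr1 libraries, so the read minimum itself favoured a lower Patr1 sum. With no read minimum, a setting chosen after seeing the data, all 103 rows of snoRNA methylation guides summed to 103, 93.7 and 74.7 CPM in Patr1, against 147, 155 and 145 CPM in esgTS, again with no overlap. The 9 rows with 50 reads or more were apart too, at 52.3, 52.1 and 42.2 CPM in Patr1 and 73.5, 72.4 and 85.8 CPM in esgTS.

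The separation was also seen in a set without Me in the name. The 20 other members under 100 bases summed to 57.8, 60.3 and 36.0 CPM in Patr1. In esgTS they came to 64.9, 65.8 and 68.3 CPM, also without overlap. This set holds box C/D RNAs by name, such as Or-CD8 and Or-CD10, so it does not show a separation outside that kind. Only 3 of the 20 were tested. Of the 47 other members, 9 had 10 reads or more over the esgTS libraries and fewer over the Patr1 libraries. The read minimum could thus favour a lower Patr1 sum here too, and no sum without it was computed for this set. The 17 methylation guides from 100 up to 200 bases, scaRNAs included, summed to 69.8, 55.2 and 33.8 CPM in Patr1, against 67.0, 68.8 and 94.6 CPM in esgTS, and overlapped.

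The 107 snoRNA pseudouridylation guides summed to 1870, 1355 and 777.5 CPM in Patr1, against 1580, 1534 and 1880 CPM in esgTS. These groups overlapped, since Patr1 replicate 1 was close to the highest esgTS library. The ratio of the means was 0.801, and 0.969 without Patr1 replicate 3. The 47 other members overlapped as a whole, at 607, 427 and 266 CPM in Patr1 and 536, 501 and 611 CPM in esgTS. The 15 scaRNAs summed to 216, 138 and 77.4 CPM in Patr1 and 178, 166 and 214 CPM in esgTS, again with overlap.

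A ratio inside each library needs no scaling between libraries. The snoRNA methylation guides came to 5.16%, 6.61% and 9.10% of the summed level of the snoRNA pseudouridylation guides in Patr1 replicates 1, 2 and 3, against 8.79%, 9.36% and 7.30% in esgTS. The groups overlapped, because Patr1 replicate 3 was among the highest values. The planned ratio over both whole classes, scaRNAs included, was 0.121, 0.131 and 0.159 in Patr1. In esgTS it was 0.153, 0.158 and 0.139, and the groups overlapped too. The difference between the 2 classes was therefore not separated from the spread of the Patr1 libraries.

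**Figure D1:**
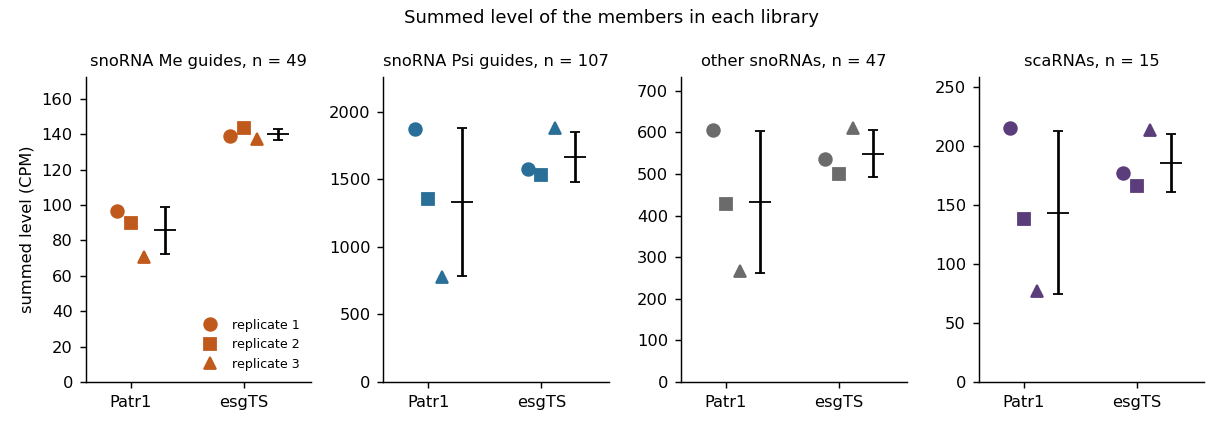
Summed level (CPM, linear axis from 0) of snoRNA methylation guides, snoRNA pseudouridylation guides, other snoRNAs and scaRNAs in each library, with Patr1 left of esgTS; symbols mark the replicate, and the bar to the right of each group is its mean ± SD (n = 3). Patr1 and esgTS are apart for the methylation guides, at 70.8 to 96.5 CPM in Patr1 and 137 to 144 CPM in esgTS, and overlap in the panels of the other classes.

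Patr1 replicate 3 carried much of the difference. Relative to the esgTS mean, the median log2 level of the pseudouridylation guides was 0.16, -0.30 and -1.10 in Patr1 replicates 1, 2 and 3. For the methylation guides it was 0.14, -0.29 and -1.29, and for the other members 0.20, -0.42 and -1.06. Replicate 1 was above the esgTS mean in each class and replicate 3 far below it.

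Of 139 tested members, 137 were lower in Patr1 replicate 3 than the mean of the other Patr1 libraries, with a median log2 difference of -0.99. Patr1 replicate 3 was the lowest of the 6 libraries for 128 of the 139, against 18.6% of all genes tested. The 13 tested structured RNAs of other kinds, such as spliceosomal RNAs and RNase P RNA, were all lower there too, with a median of -0.91. The 32 other tested genes of up to 400 bases had a median of -0.07, and the 4124 genes over 2000 bases a median of 0.04. The low level was seen across small structured RNAs, and not in the median of short genes. Patr1 replicate 1 was in turn higher than the mean of the other Patr1 libraries. Its median log2 difference was 0.89 for the 139 members and 0.91 for the 13 structured RNAs.

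Leaving out a single Patr1 library changed the count of members called. Without Patr1 replicate 1, 51 of 147 tested members were lower, comprising 34 pseudouridylation guides, 14 other members and 3 methylation guides, with 23.7% of all genes lower in that fit. Without Patr1 replicate 3, 4 of 148 were lower with 21.6% of all genes, and 2 were higher with 23.2%. The 2 higher were Psi28S-1180, at a log2 fold change of 0.57 (adjusted p = 0.0153, edgeR), and Dek-a, at 0.69 (adjusted p = 0.0145, edgeR). In that fit the median was -0.05 for methylation guides and -0.09 for pseudouridylation guides. Without esgTS replicate 3, 3 members were lower, with 21.3% of all genes, and 0 were higher, with 22.6%. DESeq2 in place of edgeR called 4 lower and 0 higher, with 13.6% and 15.3% of all genes.

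**Figure D2:**
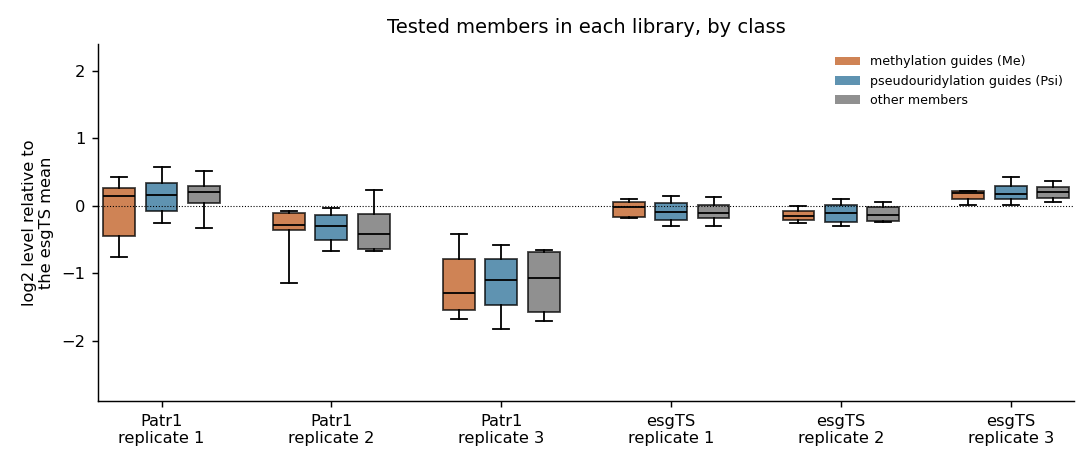
Log2 level of the 139 tested members in each library relative to their mean over the esgTS libraries, by class; boxes span the quartiles with the median as a line, and whiskers run to the 10th and 90th percentiles. The 3 classes have like medians in each library, of 0.14 to 0.20 in Patr1 replicate 1, -0.42 to -0.29 in Patr1 replicate 2 and -1.29 to -1.06 in Patr1 replicate 3.

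Both methylation guides called lower were lower in every Patr1 library. Me28S-A771, which guides methylation of 28S rRNA and lies in an intron of the splicing factor gene Sf3b3, had 4.02, 3.75 and 2.64 CPM in Patr1 replicates 1, 2 and 3, against 9.97, 14.2 and 10.3 CPM in esgTS replicates 1, 2 and 3. All Patr1 libraries were far below the lowest esgTS library. The log2 fold change was -1.72 ± 0.31 (SE; adjusted p = 7.0e-04, edgeR), or 3.29-fold lower, from 124 reads in all. It passed the threshold in each of 15 alternative fits, with adjusted p from 9.5e-06 to 0.0051. The other 3 tested guides in Sf3b3 introns, Psi18S-1086, Psi28S-3308 and Psi18S-110, had log2 fold changes of -0.31, -0.46 and -0.19 and did not pass the threshold. Sf3b3 itself was lower at -0.23 (adjusted p = 0.0333, edgeR).

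Me18S-G1358b guides methylation of 18S rRNA from an intron of CG45050. It had 5.53, 3.41 and 2.64 CPM in Patr1, against 9.97, 8.60 and 10.3 CPM in esgTS, so the groups did not overlap. Its log2 fold change was -1.34 ± 0.32 (SE; adjusted p = 0.0048, edgeR), with adjusted p from 0.0012 to 0.0301 over the alternatives that tested it. CG45050 had 827 ± 88.7 CPM in Patr1 and 746 ± 63.3 CPM in esgTS and did not pass the threshold (adjusted p = 0.258, edgeR). The guide was thus called lower and its host was not. A copy of the guide, Me18S-G1358a, lies in an intron of the same host and was below the expression filter. That copy had 5, 4 and 0 reads in Patr1 and 6, 5 and 5 reads in esgTS, which overlapped. Both copies together had at most 8.04 CPM in Patr1 and at least 10.3 CPM in esgTS. Reads may be shared between the copies, so their counts may not be independent of each other.

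Per 1000 member reads, a share that sets each RNA against the others of its own library, Me28S-A771 had 1.44, 1.87 and 2.21 in Patr1 and 4.10, 6.06 and 3.62 in esgTS. Me18S-G1358b had shares of 1.98, 1.70 and 2.21 in Patr1 and 4.10, 3.67 and 3.62 in esgTS. In both, the Patr1 libraries stayed below the esgTS libraries on this scale, on which the general shift of Patr1 replicate 3 drops out. Of 139 tested members, 12 had shares lower in Patr1 without overlap and 10 had shares higher.

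Among the 13 tested methylation guides, the third with no overlap and a lower level was Me28S-A1322, the most abundant snoRNA methylation guide, in an intron of the elongation factor gene eEF1alpha1. It had 17.6, 21.1 and 18.02 CPM in Patr1, against 26.1, 24.1 and 22.1 CPM in esgTS. Its log2 fold change of -0.34 did not pass the threshold (adjusted p = 0.119, edgeR). Me18S-G1189 was the 1 tested member with levels higher in Patr1 without overlap, at 4.52, 6.13 and 4.40 CPM in Patr1 and 3.78, 2.65 and 3.81 CPM in esgTS. Its log2 fold change of 0.58 ± 0.34 (SE) did not pass either (adjusted p = 0.180, edgeR).

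The lola-a and lola-b RNAs lie with lola-c and lola-d in introns of lola, which encodes BTB zinc finger transcription factors, and their names give no target. The lola-a RNA had 18.6, 15.7 and 7.91 CPM in Patr1, against 25.4, 22.5 and 27.8 CPM in esgTS, a log2 fold change of -0.84 ± 0.25 (SE; adjusted p = 0.0149, edgeR). The lola-b RNA had 18.1, 14.7 and 9.23 CPM in Patr1, against 22.0, 20.8 and 25.9 CPM in esgTS, a log2 fold change of -0.71 ± 0.23 (SE; adjusted p = 0.0229, edgeR). Neither overlapped between the groups, also in the share of member reads. Without Patr1 replicate 3, lola-a still passed (adjusted p = 0.0327, edgeR) and lola-b did not (adjusted p = 0.0674, edgeR). The lola-c and lola-d RNAs had log2 fold changes of -0.68 and -0.52 and overlapping levels. The lola gene was lower as well, at 1081 ± 68.9 CPM in Patr1 and 1434 ± 66.3 CPM in esgTS (log2 fold change -0.41, adjusted p = 0.0032, edgeR).

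The 4 pseudouridylation guides called lower all name 28S rRNA. Psi28S-2949, from the non-coding host gene Uhg4, had 3.02, 4.43 and 1.76 CPM in Patr1, against 5.50, 6.28 and 8.01 CPM in esgTS, a log2 fold change of -1.04 ± 0.37 (SE; adjusted p = 0.0348, edgeR). Psi28S-3305b and Psi28S-3405c lie in introns of Hrb98DE, which encodes an hnRNP. Psi28S-3305b had 8.54, 10.6 and 6.59 CPM in Patr1, against 9.62, 16.5 and 21.7 CPM in esgTS (log2 fold change -0.87, adjusted p = 0.0390, edgeR). Its groups overlapped, since Patr1 replicate 2 lay above esgTS replicate 1. Psi28S-3405c had 7.54, 8.52 and 6.15 CPM in Patr1, against 8.93, 13.2 and 16.0 CPM in esgTS (log2 fold change -0.76, adjusted p = 0.0444, edgeR), with no overlap.

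All 7 guides in Hrb98DE introns were tested and their median log2 fold change was -0.69, from -0.93 to -0.56. They summed to 103, 85.5 and 43.5 CPM in Patr1 and 100.0, 121 and 150 CPM in esgTS, so Patr1 replicate 1 overlapped the lowest esgTS library. Hrb98DE had 436 ± 19.0 CPM in Patr1 and 475 ± 8.84 CPM in esgTS, a log2 fold change of -0.12 that did not pass the threshold (adjusted p = 0.207, edgeR). As Psi28S-3305 and Psi28S-3405 are copies of 2 guides, their counts may not be independent of each other.

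Psi28S-3436a, in the ribosomal protein gene RpL17, is an abundant guide with 812 reads. It had 54.3, 45.3 and 33.8 CPM in Patr1, against 56.0, 55.9 and 61.8 CPM in esgTS, a log2 fold change of -0.38 ± 0.15 (SE; adjusted p = 0.0432, edgeR). SC35-b, in the gene of the splicing factor SC35, had 22.1, 23.9 and 14.5 CPM in Patr1, against 26.5, 29.1 and 30.9 CPM in esgTS, a log2 fold change of -0.50 ± 0.19 (SE; adjusted p = 0.0454, edgeR). Neither overlapped in level, and both overlapped in the share of member reads. The calls on these 2, on the Hrb98DE guides, on Psi28S-2949 and on lola-b were lost without Patr1 replicate 3, with adjusted p from 0.0674 to 0.150 in edgeR. With each of the 6 libraries left out in turn, Me28S-A771, Me18S-G1358b and lola-a passed every time, and the other 6 lost the call at least once.

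**Figure D3:**
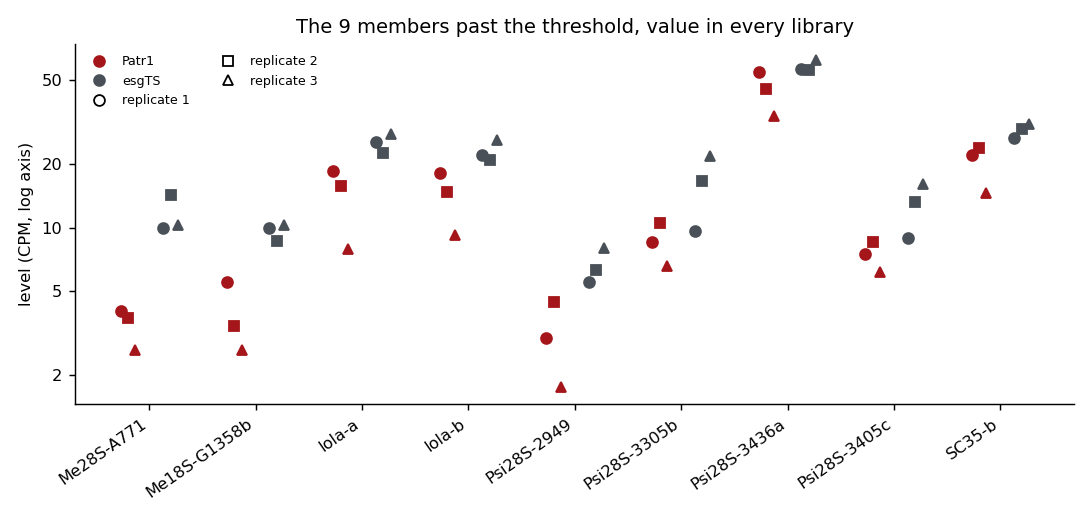
Level (CPM, log axis) in every library of the 9 members past the threshold, ordered by p, with Patr1 (red) left of esgTS (grey) and symbols for the replicate. Me28S-A771 stands furthest apart, at 2.64 to 4.02 CPM in Patr1 and 9.97 to 14.2 CPM in esgTS.

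The most abundant members did not pass the threshold, except Psi28S-3436a. Psi28S-291, in the ribosomal protein gene RpL3, had the highest mean level, at 103, 70.9 and 41.8 CPM in Patr1, against 82.8, 78.1 and 96.5 CPM in esgTS. Patr1 replicate 1 was the highest and Patr1 replicate 3 the lowest of the 6 libraries, and the log2 fold change was -0.27 ± 0.22 (SE). The same order at both ends held for Tudor-SN-a, at 115, 59.6 and 54.5 CPM in Patr1 and 88.3, 68.1 and 86.2 CPM in esgTS, and for scaRNA MeU5-C46, a methylation guide of the spliceosomal U5 RNA, at 86.9, 56.6 and 41.8 CPM in Patr1 and 71.8, 63.8 and 83.5 CPM in esgTS. Their log2 fold changes were -0.11 ± 0.22 and -0.26 ± 0.20 (SE). The others of the 10 most abundant were Psi28S-2566, Psi28S-3436b, Psi18S-176, Psi18S-531, Psi28S-3342 and a snoRNA gene named only by its position, with log2 fold changes from -0.57 to 0.12. Of these, Psi18S-531 had levels without overlap, at 35.7, 33.1 and 23.7 CPM in Patr1 and 37.8, 41.7 and 40.4 CPM in esgTS (adjusted p = 0.0602, edgeR).

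Further members with lower levels in Patr1 and no overlap did not pass the threshold. They were the guides Psi28S-3305c, Psi28S-3405a, Psi28S-2179, Psi28S-1135a, Psi28S-1135d, Psi28S-2149, Psi18S-1397, Psi28S-3385b and Psi28S-1232. Their log2 fold changes ran from -0.86 for Psi18S-1397 to -0.40 for Psi28S-2179, with adjusted p (edgeR) from 0.0527 to 0.262. For Psi18S-1397 the levels were 7.04, 4.43 and 2.64 CPM in Patr1 and 8.25, 7.94 and 9.15 CPM in esgTS.

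The 15 scaRNAs, 9 of the methylation and 6 of the pseudouridylation kind, held no called member. Of these, 12 were tested and 0 were called in either direction, with 1 at an unadjusted p under 0.05. All 12 had log2 fold changes below 0, from -0.76 to -0.17, and all 12 were lowest in Patr1 replicate 3. PsiU6-40, which guides the U6 RNA from an intron of skd, had 15.6, 10.6 and 1.32 CPM in Patr1, against 13.1, 12.9 and 20.6 CPM in esgTS. Only 3 reads of it were counted in Patr1 replicate 3. The 3 tested U3 genes, whose box C/D RNA acts in cleavage of the pre-rRNA and guides no modification, had log2 fold changes of -0.68, -0.29 and 0.17, and all 3 overlapped.

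The read minimum kept nearly all guides of one class and about as many as it left out of the other, which describes the rule and its members. Of pseudouridylation guide rows in the table, 113 of 115 (98.3%) were members, against 58 of 114 (50.9%) methylation guide rows. Among members, the median level per length over all libraries was 80.1 CPM per 1000 bases for pseudouridylation guides, 16.6 for methylation guides and 38.5 for the other members. Median gene lengths were 140 bases for pseudouridylation guides and 81 bases for methylation guides. Among genes from 100 up to 200 bases, 111 of 113 pseudouridylation guides were members, and 17 of 33 methylation guides. How well the library preparation takes up RNAs of each length was not tested.

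**Figure D4:**
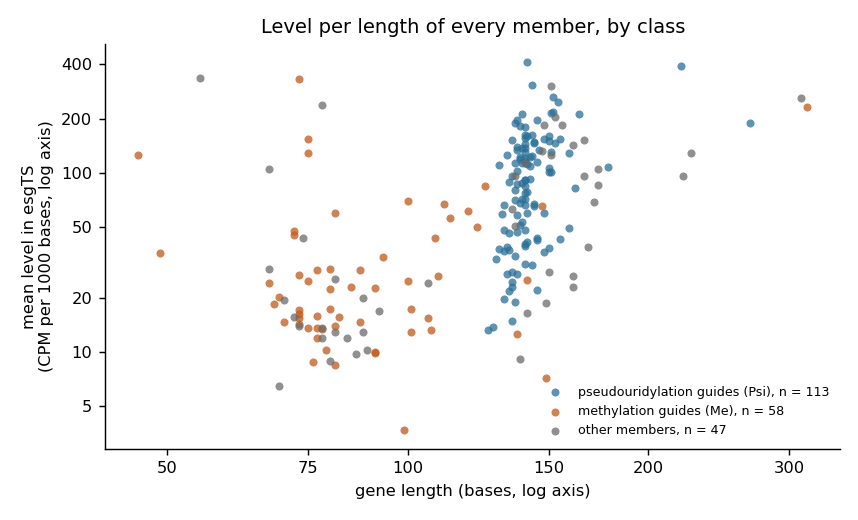
Mean level in esgTS per 1000 bases (log axis) against gene length (log axis) for each of the 218 members, by class. Pseudouridylation guides cluster near 140 bases at higher levels, and most methylation guides lie under 100 bases at lower levels.

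The 79 members below the expression filter had 10 to 66 reads each and comprised 45 methylation guides, 12 pseudouridylation guides and 22 others. In 34 of them, 24 being methylation guides and 1 a pseudouridylation guide, the esgTS libraries together held at least 10 reads and the Patr1 libraries fewer, while 1 had the reverse. The read minimum thus favoured members that were low in Patr1, and their values are given as a description. Me28S-A2629, in an intron of Rbfox1, had 1, 1 and 3 reads in Patr1, against 7, 10 and 13 reads in esgTS. Me28S-A1666a, in an intron of Uhg1, had 0 reads in each Patr1 library, against 4, 5 and 2 reads in esgTS. Both guides were chosen as examples after their values were seen. A count of 0 allows up to 3 reads, which is 1.51, 1.02 and 1.32 CPM in Patr1 replicates 1, 2 and 3, so no fold change is given. In a fit of every gene with at least 10 reads, 18 of 218 members were lower and 0 higher, with 20.1% of all genes called lower and 22.3% higher, and 7 of the 18 were among these 79, so nothing is read from that count.

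Most members lie in introns, which allowed each to be set beside its host. In the BDGP6 annotation 208 of 218 members were found by name, 193 of them in an intron of a gene on the same strand. There were 77 hosts, of which 48 held 1 member, while Arpc2, dom and RpS5a together held 45. Ribosomal protein genes, 25 in number, held 59 members, and 7 non-coding Uhg genes, long RNAs whose introns carry mostly box C/D RNAs, held 30. Counts of an intronic RNA may hold reads of the unspliced host, which cannot be told apart in these counts.

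The hosts of tested members and the Uhg genes made a list of 57, of which 56 were tested. Of these, 13 were lower (23.2%) and 3 higher in Patr1, with 23.9% and 25.5% of all genes. All 15 ribosomal protein genes on that list stayed without a call, with a median log2 fold change of -0.13. Outside the list, RpS12, whose members were not tested, was lower at -0.34 (adjusted p = 0.0250, edgeR). Of 6 tested Uhg genes 3 were lower, Uhg2 at -0.63, Uhg4 at -0.58 and Uhg5 at -0.51 (adjusted p of 0.0209, 0.0060 and 0.0173, edgeR). Without Patr1 replicate 3 Uhg4 still passed (adjusted p = 0.0203, edgeR), while Uhg2 and Uhg5 did not (adjusted p of 0.0731 and 0.0654, edgeR). Uhg2 also overlapped, at 32.2, 21.8 and 18.9 CPM in Patr1 and 30.2, 38.0 and 43.1 CPM in esgTS. Uhg4 had 31.7, 27.9 and 22.4 CPM in Patr1, against 38.1, 42.0 and 42.3 CPM in esgTS, without overlap. The 30 members in Uhg genes summed to 67.8, 47.7 and 30.3 CPM in Patr1, against 84.9, 82.0 and 70.9 CPM in esgTS, also without overlap. The 29 snoRNA methylation guides outside Uhg genes were apart as well. They had 68.8, 69.2 and 60.2 CPM in Patr1 and 101, 104 and 110 CPM in esgTS. Of the 30 members 3 were tested, and of the 29 guides 6. For the rest, below the expression filter, the read minimum favoured members low in Patr1, so both sums are only a description.

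Hosts called lower held 27 tested members with a median log2 fold change of -0.44, of which 5 were called lower. The 3 hosts called higher held 11 tested members with a median of -0.17, and none was called. Of these 11, 8 lie in Arpc2 and are copies of Psi18S-525 and Psi18S-640. Hosts without a call held 87 tested members with a median of -0.36, of which 4 were called lower. These medians count members of the same host separately, so no order between hosts and members is read from them. In single hosts, members and host differed. CG3902 fell to 58.7 ± 13.9 CPM in Patr1, against 174 ± 6.16 CPM in esgTS (log2 fold change -1.57, adjusted p = 8.8e-07, edgeR), while its intronic guide Psi28S-2566 had 84.9, 49.4 and 32.5 CPM in Patr1 and 55.7, 41.7 and 53.8 CPM in esgTS (0.12 ± 0.25, SE). Tudor-SN, a nuclease gene, fell with a log2 fold change of -0.41 (adjusted p = 0.0013, edgeR), and its 2 members had a median of -0.10.

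Among hosts of tested members, the others called lower were SC35 (-0.60), Fib (-0.46), skd (-0.38), hfp (-0.38), Nop60B (-0.35) and kra (-0.32), besides lola, Sf3b3, Uhg2 and Uhg4. The hosts of tested members called higher were Arpc2 (0.21), Usp10 (0.29) and Msp300 (0.41). Some hosts that held only untested members were called as well. Swim (2.11), Irbp (0.55) and Aladin (0.41) were higher. Rbfox1 (-1.57), CG1646 (-0.76), Uhg5 (-0.51), Stt3A (-0.48) and RpS12 (-0.34) were lower. Arpc2, an actin regulator, had 269 ± 10.8 CPM in Patr1 and 232 ± 9.48 CPM in esgTS. Arpc2 passed in 5 of 15 alternatives, and not without Patr1 replicate 3 (adjusted p = 0.0877, edgeR) or with DESeq2 (adjusted p = 0.121). The 8 tested guides in Arpc2, which are copies of Psi18S-525 and Psi18S-640, had a median of -0.12.

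**Figure D5:**
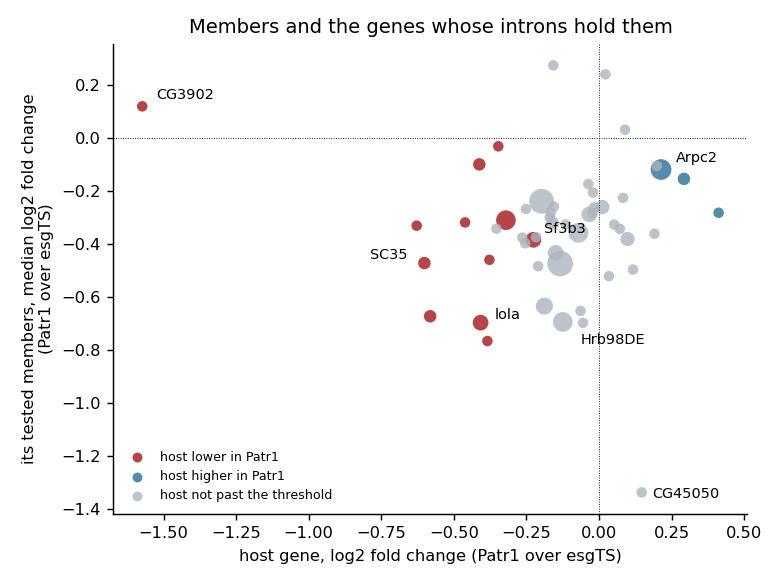
Median log2 fold change of the tested members of each host gene against the log2 fold change of the host itself (Patr1 over esgTS); a point is a host, its area grows with the number of tested members, and its colour gives the call on the host. CG3902 is far to the left, at -1.57, with its member at 0.12, and CG45050 is lowest, at -1.34 with the host at 0.15.

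Copies of a guide can be near-identical, so that their reads may be shared among them. There were 27 names with 2 or more copies among the members, which held 90 of the 218, and 8 names had 4 or more copies. The 11 copies of Psi18S-525, in introns of Arpc2 and Msp300, summed to 50.8, 42.9 and 22.4 CPM in Patr1 and 41.6, 42.3 and 61.0 CPM in esgTS. The 6 copies of Psi28S-1135, in RpS5a, summed to 95.0, 64.4 and 39.1 CPM in Patr1 and 83.2, 89.3 and 110.2 CPM in esgTS, and their median log2 fold change was -0.53. The 5 copies of Psi18S-1377, in RpS7, summed to 155, 95.1 and 64.2 CPM in Patr1 and 128, 110.5 and 138 CPM in esgTS. In these 3 families Patr1 replicate 1 lay within or above the esgTS range. The sources used here do not say how reads of near-identical copies were assigned.

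Genes of the proteins that bind these RNAs changed in part. In a list of 28 such genes, 6 were lower and 4 higher, with 23.9% and 25.5% of all genes. The box C/D protein genes called lower were Fib, which encodes fibrillarin, and nop5, 2 of 4. Fib had 152, 132 and 141 CPM in Patr1, against 211, 186 and 186 CPM in esgTS (log2 fold change -0.46, adjusted p = 8.4e-04, edgeR). The box H/ACA protein genes called lower were Nop60B and CG4038, the gene of GAR1, 2 of 4. Nop60B had 312, 252 and 313 CPM in Patr1, against 400, 351 and 360 CPM in esgTS (log2 fold change -0.35, adjusted p = 0.0124, edgeR). All Patr1 libraries were below all esgTS libraries in these 4 genes.

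Of 7 genes of assembly and the Cajal body, Nopp140 (-0.35) and CG10341, the gene of the assembly factor NAF1 (-0.40), were lower, and the helicase gene rept was higher (0.29). Of 13 genes of the exosome and of trimming, which finish the ends of excised RNAs, 3 were higher (23.1%, with 25.5% of all genes) and 0 lower. The 3 were the exosome subunit genes Ski6 (0.60) and Mtr3 (0.45) and the exonuclease gene Rat1 (0.26). Without Patr1 replicate 3, rept and Rat1 no longer passed (adjusted p of 0.143 and 0.139, edgeR).

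Other structured RNAs gave the nearest comparison. Of 13 tested, RNaseP:RNA, the RNA of the enzyme that trims tRNA precursors, was lower at 123, 77.4 and 64.6 CPM in Patr1, against 127, 117 and 143 CPM in esgTS (log2 fold change -0.57, adjusted p = 0.0172, edgeR). The spliceosomal gene snRNA:U2:34ABa was lower at -1.16 (adjusted p = 0.0313, edgeR) and snRNA:U1:95Cc higher at 0.83 (adjusted p = 0.0491, edgeR), both from gene families with near-identical copies. The median over the 13 was -0.13, and without Patr1 replicate 3 the median of the 14 then tested was 0.20 with 0 lower and 2 higher. In the fit of every gene with at least 10 reads the median over all 27 listed was 0.09, with 17 above 0.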

How the data were processed

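Counts are whole reads for each gene as deposited, beside the gene's length. The submitters' processing notes list DESeq2, featureCounts of Subread 2.0.0, SAMtools 1.10, STAR 2.7.3a and cutadapt 2.9. Build, annotation, strand and the treatment of reads with several matches: not given in the sources used here. Coordinates are therefore left out. The authors' deposited comparison table, of 9167 genes as used here, lists 0 of these RNAs. It holds normalized values (a signal, the count divided by 1 factor per library), log2 fold changes, a Wald score and p-values, per the file headers, and only its size factors were used, for an alternative chosen after seeing the data.

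Members and gene lists were chosen with earlier results of these data known. The whole table was tested with edgeR 4.0.16 (R 4.3.3): quasi-likelihood test, TMM factors, default expression filter by group, Benjamini-Hochberg adjustment at 0.05 over 7927 genes. CPM values use TMM-scaled sizes, and a level per length is CPM per 1000 bases. Floors cover counting error only, while SD and SE values include the spread between libraries. A row without a gene name took up to 0.00296% of reads and was left out. Libraries of 1 genotype differed beyond counting noise (2.59 to 4.63 chi-square units per degree of freedom in each pair). Hosts were taken from the BDGP6 annotation by name and strand. Named in the text were members past the threshold, the 10 most abundant, those at 5 CPM or more in a genotype without overlap, and protein and host genes past the threshold. Alternatives were other factors, filters, DESeq2 1.42.0, a replicate block and leaving out each library. Python 3.11.15, pandas 2.3.3 and matplotlib 3.10.9 were used.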

Additional observations from a re-analysis of the deposited data

How the results depend on the processing

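The median log2 fold change of both guide classes was below 0 in all 15 alternatives. Their summed level was lower in Patr1 with RLE and upper-quartile factors, library totals alone, each library left out and the most abundant member left out; it was not computed for the other settings. Counts of calls moved with filter and library. Members called lower were 18 of 218 (8.26%, with 20.1% of all genes) with every gene of at least 10 reads. With no filter they were 37 of 218 (17.0%, with 15.9%). With the authors' size factors (chosen after seeing the data) they were 14 of 139 (10.1%, with 24.8%), and with DESeq2 4 of 218 (1.83%, with 13.6%). Leaving out 1 library gave 3 to 51 lower, with 19.6% to 23.7% of all genes, and 0 to 2 higher. The same shares of all genes stand beside the lower counts by class below. They were 22.2% with upper-quartile factors and 24.6% with the stricter filter. Methylation guides called lower were 6 with either looser filter, 4 of them members that the expression filter left out, and 1 with the stricter one. Pseudouridylation guides called lower were 2 with upper-quartile factors, 22 with no filter, 0 with DESeq2, 8 with the authors' size factors, and 0 to 34 with 1 library left out (0 to 1 higher). Other members called lower were 7 and 9 with the looser filters, and 1 to 14 with 1 library left out (0 to 1 higher). Protein genes called higher were 2 with library totals alone, 1 with DESeq2 and 2 to 7 with 1 library left out. Host genes called higher were 1 with the authors' size factors and 0 to 3 with 1 library left out, and hosts called lower were 9 to 22 then. Of other structured RNAs, 0 were higher with RLE factors, library totals, each other filter, DESeq2, the authors' size factors and the replicate block, and 0 to 2 with 1 library left out; lower were 1 with DESeq2 and 0 to 5 with 1 library left out. The cause was not tested in any of these. Over 845 pairs of a named gene (57) and a setting, 727 kept their side of the threshold, 93 lost a call, 25 gained one and 0 turned.

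Replicate numbers were not treated as a pairing in the main fit. Deviations of same-numbered libraries correlated at 0.06, 0.19 and -0.05, and those of differently numbered ones at -0.30 to 0.21. These values cannot show whether same-numbered libraries were handled together. With the replicate block, 7 members were lower, of which 2 pseudouridylation guides, with 24.0% of all genes lower. At this depth 79 of 218 members were below the expression filter, each with 10 to 66 reads.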
